A study of Oryctolagus cuniculus with 36 samples.

Results

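The 200 genes described here were read much more in the terminal ileum than in the liver of the same series of rabbits, yet had reads in liver as well. They were chosen by measured values. Each library was scaled to counts per 1000000 reads (CPM), and T was the log2 of the mean of the 24 liver libraries plus 1 over the mean of the 12 ileum libraries plus 1. Of the 9419 genes in both tables, 965 had a T of -3 or lower, and 640 of these had a mean of at least 10 normalized counts over the liver libraries. Of these 640, 3 were left out by identifier, and of the remaining 637 the 200 with the highest ileum mean were taken. The ileum and liver levels that made the choice are given below as description and were not tested. The limits used no difference between lobes or between treatments. The liver minimum could still be reached through the embolized lobes alone, and earlier results of these data were known when the members were chosen.

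Rabbits were pre-treated with obeticholic acid (OCA) or with vehicle and then underwent portal vein embolization, and RNA was sequenced from the terminal ileum and from liver lobes on both sides of the block. There were 6 groups of 6 libraries, all labelled wild type (WT). They were ileum of OCA rabbits and ileum of vehicle rabbits, the cranial embolized lobe of OCA rabbits and of vehicle rabbits, which is labelled atrophic, and the caudal non-embolized lobe of OCA rabbits and of vehicle rabbits, which is labelled hypertrophic. The sources used here do not give age, dose or sampling time. All groups share the embolization, so no unoperated liver or ileum was compared, and the effect of embolization and the position of the lobe cannot be told apart. The labels do not say that the 6 libraries of a group are 6 rabbits, and p-values therefore measure the spread between libraries, which may be technical.

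The ileum wall is built of absorptive and secretory epithelium over connective tissue, immune cells, nerves and smooth muscle, and its terminal stretch takes bile acids back up into portal blood. The liver consists mostly of hepatocytes, with bile duct epithelium, vessels and immune cells making up the rest. Portal vein embolization cuts the portal supply of some lobes, which shrink, while the perfused lobes grow, and OCA, made from a bile acid, switches on the bile acid sensor FXR, a nuclear receptor present in both organs. The tables name genes by Ensembl identifier only and the reference table used here holds no such identifier, so the members are given by identifier, without name or function. For the same reason the labelled tissues were not checked against marker genes here. In bulk RNA, fewer cells of a type and less RNA per cell cannot be told apart.

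T ran from -11.79 to -3.004 over the 200 members, with a median of -4.56. As a ratio of the ileum mean plus 1 to the liver mean plus 1, this was 8.02-fold to 3540-fold with a median of 23.5-fold. T lay between -4 and -3 for 76 members, between -6 and -4 for 68, between -8 and -6 for 38, and at -8 or lower for 18. The members averaged 195 to 11400 CPM in ileum (median 399) and 0.667 to 321 CPM in liver (median 16.6). Across the members, the ileum and liver levels had a Spearman rho of 0.269, with the same libraries behind every point. The tables were normalized separately, so ileum and liver levels were set side by side only in CPM. The counts are not per length, so an order of members by counts or CPM is one of reads and not of transcripts.

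**Figure D1:**
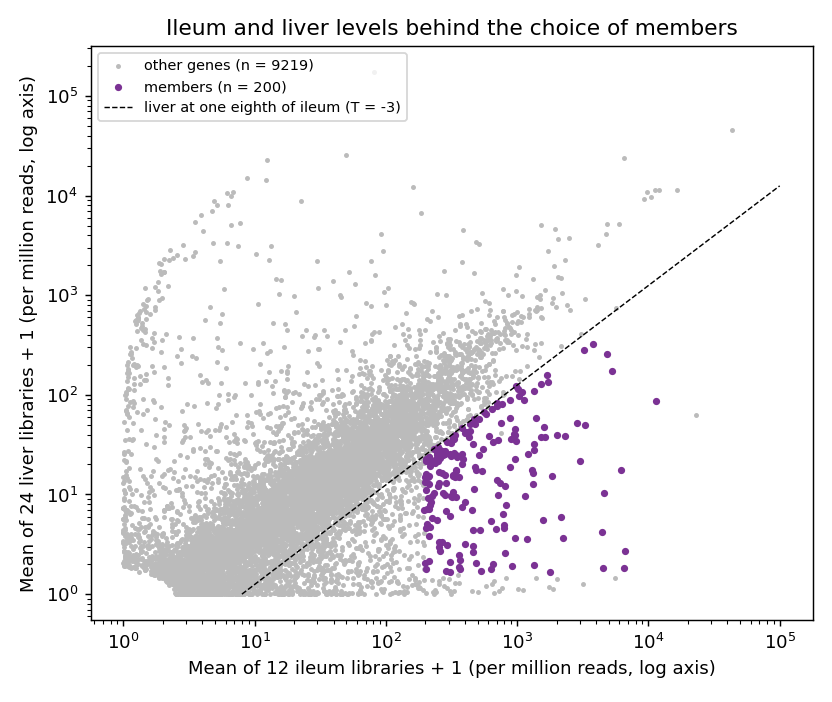
Each point is a gene, with its mean over the 12 ileum libraries plus 1 on the horizontal axis and its mean over the 24 liver libraries plus 1 on the vertical axis, both in counts per 1000000 reads (CPM) on log axes. The 200 members (purple) lie below the dashed line at a T of -3 and to the right of an ileum mean of 195 CPM, and grey points in the same corner missed the liver minimum or were left out by identifier.

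The limits of the choice cut through a continuous range of values. ENSOCUG00000004001 was just inside the T limit at -3.004, and ENSOCUG00000027070 was just outside at -2.989. ENSOCUG00000013016 was just inside the liver minimum with a mean of 10.6 normalized counts, and ENSOCUG00000003590 was just outside with 8.51. At the end of the ileum ranking, ENSOCUG00000001181 held place 200 with 194.65 CPM and ENSOCUG00000017851 place 201 with 194.62.

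All 200 members had reads in each of the 12 ileum libraries, and 184 had reads in each of the 24 liver libraries. The other 16 were at 0 in at least 1 liver library and at most in 8. The mean over the 24 liver libraries was 10.6 to 5260 normalized counts with a median of 260.0. In every one of the 4 liver groups the mean was at least 10 for 179 members. The other 21 fell below 10 in at least 1 group, namely 3 in embolized OCA lobes, 3 in embolized vehicle lobes, 12 in non-embolized OCA lobes and 18 in non-embolized vehicle lobes. Members that reached the liver minimum through the embolized lobes had to differ between lobes, and they are counted apart below.

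The libraries held 11.2 to 18.7 M reads (M, 1000000) in ileum of OCA rabbits, 13.2 to 24.5 M in ileum of vehicle rabbits, 12.3 to 17.3 M in embolized OCA lobes, 12 to 15.8 M in embolized vehicle lobes, 14.2 to 26.2 M in non-embolized OCA lobes and 14 to 27.3 M in non-embolized vehicle lobes. In the ileum, OCA replicate 1 and vehicle replicate 6 stood apart from the other 10 libraries. OCA 1 was the lowest of its group for 171 of the 200 members (85.5%), against 33.8% of all genes tested. Vehicle 6 was the lowest of its group for 136 members (68.0%), against 32.4% of all genes tested. Set against the median of the other 10 libraries, 146 members were at least 2-fold lower in OCA 1 and 103 in vehicle 6, and each of these 10 had 3 to 9 such members against the median of the remaining 9. In vehicle 6 the departure went both ways, with 37 members at least 8-fold lower and 3 at least 8-fold higher.

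The choice of members was repeated without these libraries, an alternative added after the data were seen. It kept 186 of the 200 members, replaced 14, and moved 1 past the T limit. In the liver, embolized vehicle replicate 5 was the highest of its group for 83 members (41.5%), against 25.5% of all genes tested, and embolized vehicle replicate 4 was the lowest for 71 (35.5%), against 21.8%. For the comparisons of OCA with vehicle, and for the named members whose extreme values lie in these libraries, values without them are given as well.

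The members together took 17.5% ± 4.44 of reads in ileum of OCA rabbits and 18.1% ± 1.68 in ileum of vehicle rabbits (SD, n = 6 each). OCA 1 was at 8.70%, and the other 5 OCA libraries were at 18.1% to 21.3%. Vehicle 6 was at 15.2%, and a single member made up a large part of that share, since it was 7.23% without ENSOCUG00000011546. In the liver the share was 0.609% ± 0.130 in embolized OCA lobes, 0.540% ± 0.189 in embolized vehicle lobes, 0.595% ± 0.084 in non-embolized OCA lobes and 0.594% ± 0.039 in non-embolized vehicle lobes (SD, n = 6 each). These 4 ranges overlapped, and the highest single values were 0.854% in embolized OCA replicate 4 and 0.882% in embolized vehicle replicate 5.

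**Figure D2:**
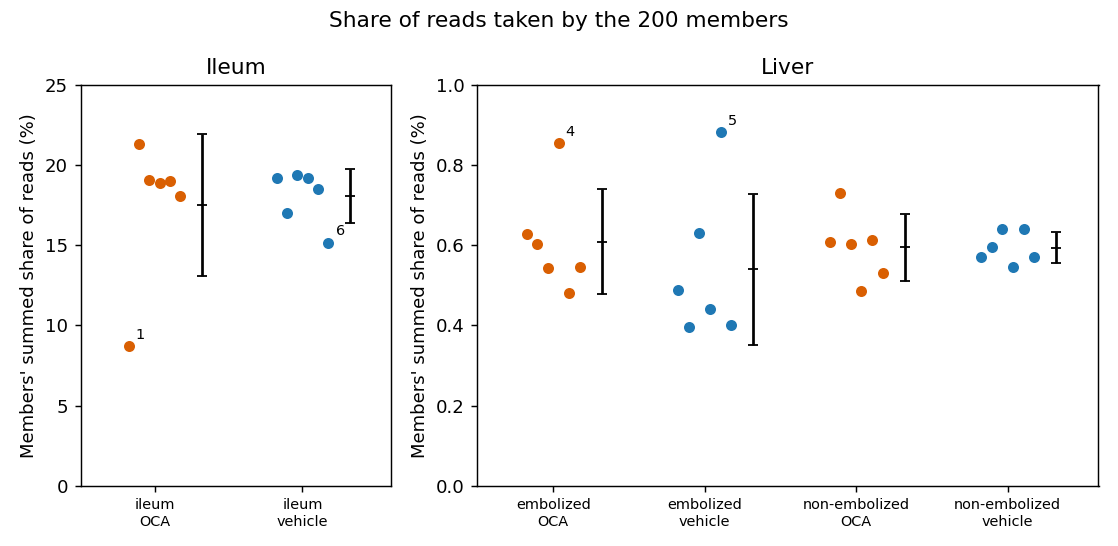
Each point is a library and gives the percent of its reads that fell on the 200 members, with ileum groups on the left and liver groups on the right on separate axes that start at 0, and bars giving mean ± SD of 6 libraries. Numbers mark the libraries that stand apart: OCA 1 at 8.70% and vehicle 6 at 15.2% in ileum, embolized OCA 4 at 0.854% and embolized vehicle 5 at 0.882% in liver.

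The summed share is carried by the members with most reads, and the typical member behaved differently. The median member had a mean of 325 normalized counts in embolized OCA lobes, 282 in embolized vehicle lobes, 213 in non-embolized OCA lobes and 209 in non-embolized vehicle lobes. In ileum it had 6460 in OCA and 6540 in vehicle rabbits, on the ileum table's own scale. Members varied more between libraries than genes at large in all 6 groups. Their median SD of log2 values against that of all genes tested was 0.71 against 0.50 in ileum of OCA rabbits and 0.64 against 0.45 in ileum of vehicle rabbits. These ileum values include OCA 1 and vehicle 6, the lowest of their groups for 85.5% and 68.0% of members, and are not given without them. In embolized lobes it was 0.49 against 0.40 with OCA and 0.51 against 0.44 with vehicle, and in non-embolized lobes 0.41 against 0.38 with OCA and 0.40 against 0.34 with vehicle.

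Among the 3 members with the highest ileum mean, each showed a different pattern. ENSOCUG00000016264, the first in rank, had 49967 normalized counts at the lowest, 180000 at the median and 258336 at the highest in ileum of OCA rabbits, against 120.0, 207965 and 239625 in ileum of vehicle rabbits. The lowest value of each group was in OCA 1 and vehicle 6, and the next lowest vehicle library had 174956. In the liver the same gene had a lowest, median and highest value of 725, 1127 and 1255 in embolized OCA lobes, 737, 1165 and 1719 in embolized vehicle lobes, 1185, 1656 and 1892 in non-embolized OCA lobes and 1244, 1681 and 2362 in non-embolized vehicle lobes. It was lower in embolized lobes in both treatments, by a log2 fold change of -0.60 ± 0.19 (SE) with OCA and -0.58 ± 0.19 with vehicle (limma, adjusted p = 0.0165 and 0.0235), although the ranges overlapped.

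ENSOCUG00000011546 owed its second rank to 1 library. It had 1567525 normalized counts in ileum vehicle 6 and no more than 314 in any of the other 11 ileum libraries. In the liver its highest value was 35.5 in embolized OCA lobes, 380.0 in embolized vehicle lobes, 64.5 in non-embolized OCA lobes and 9 in non-embolized vehicle lobes, each in a single library far above its group's median of 6.06, 14.8, 2.73 and 4.81, except in the last group. Its coefficient of variation over the scaled liver libraries, 3.12, was the highest of all members. Its lobe difference in vehicle rabbits passed narrowly, with a log2 fold change of 2.42 ± 0.90 (limma, adjusted p = 0.0496), and that with OCA did not, with 0.57 ± 0.90 (limma, adjusted p = 0.671).

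ENSOCUG00000005435, the third in rank, had the lowest T at -11.79. In ileum it had 31834, 174738 and 244704 normalized counts at the lowest, median and highest in OCA rabbits, against 37.2, 66693 and 91566 in vehicle rabbits. The groups overlapped, and its log2 fold change of 2.69 ± 1.66 did not pass the test (limma, adjusted p = 0.669). In the liver it was at 0.00, 0.346 and 3.63 in embolized OCA lobes, against 2.03, 19.8 and 92.4 in non-embolized OCA lobes, and in vehicle lobes at 0.00, 1.77 and 28 in the embolized lobe, against 0.00, 7.76 and 40.7 in the non-embolized lobe. The lobe difference with OCA was a log2 fold change of -3.43 ± 1.06 (limma, adjusted p = 0.0156) and rests on a handful of reads in most libraries.

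The 3 members with the highest liver mean fell on different sides of the lobe comparison. ENSOCUG00000001571 had 2065, 2282 and 3075 normalized counts at the lowest, median and highest in embolized OCA lobes, against 4245, 6459 and 6901 in non-embolized OCA lobes. In vehicle rabbits it had 2237, 2527 and 3911 in embolized lobes, against 4396, 6112 and 6501 in non-embolized lobes. Neither pair of groups overlapped, and the gene was lower in embolized lobes by a log2 fold change of -1.26 ± 0.16 with OCA and -1.06 ± 0.16 with vehicle (limma, adjusted p = 3.64e-06 and 2.59e-05). ENSOCUG00000001324 also fell, by a log2 fold change of -0.38 ± 0.13 with OCA and -0.47 ± 0.13 with vehicle (limma, adjusted p = 0.0283 and 0.00956), with overlapping ranges. ENSOCUG00000010443 passed the test in neither, with 0.11 ± 0.20 and -0.04 ± 0.20 (limma, adjusted p = 0.706 and 0.909).

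The embolized lobe was then compared with the non-embolized lobe across all 8653 liver genes with at least 10 normalized counts in at least 6 libraries, a filter that all 200 members passed. The test was limma on log2(normalized count + 1), and a gene was called at a Benjamini-Hochberg adjusted p below 0.05. In OCA rabbits, 55 of the 200 members (27.5%) were higher in the embolized lobe, where 16.5% of all genes tested were, and 28 (14%) were lower, where 15.6% of all genes were. Calls of at least 2-fold numbered 39 higher (19.5%, against 9.36% of all genes) and 12 lower (6.0%, against 5.24%). The share of members called higher was thus above that of genes at large, and the share called lower was near it. The median log2 fold change was 0.23 over the members and 0.01 over all genes, and 130 members (65.0%) had a positive one, against 50.9% of all genes.

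In vehicle rabbits, 39 members (19.5%) were higher in the embolized lobe, where 11.7% of all genes tested were, and 25 (12.5%) were lower, where 13.9% were. At least 2-fold, 25 were higher (12.5%, against 5.48% of all genes) and 13 lower (6.5%, against 5.85%). The median log2 fold change was 0.07 over the members and 0.03 over all genes. The balance of directions depended on how libraries were scaled. With libraries scaled to equal totals the split was 22 higher and 23 lower, and the members' median was -0.01. These were 11% and 11.5% of members, against 7.12% and 15.1% of all genes, so the balance of all genes moved too. In OCA rabbits the same scaling gave 44 higher (22%, against 15.9% of all genes) and 19 lower (9.5%, against 11.7%).

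Within each tissue and treatment, replicates 1 to 3 and 4 to 6 hold separate stretches of library numbers, and no label names a batch. The lobes were also compared within each of these sets of replicates. In OCA rabbits limma then called 38 members higher and 20 lower with replicates 1 to 3, and 22 higher and 12 lower with replicates 4 to 6. As shares these were 19% and 10% of members with replicates 1 to 3, against 13% and 11.8% of all genes, and 11.1% and 6.06% with replicates 4 to 6, against 5.09% and 5.16%. In vehicle rabbits it called 20 higher and 13 lower with replicates 1 to 3, and 7 higher and 14 lower with replicates 4 to 6, where the balance was the other way. These were 10% and 6.5% with replicates 1 to 3, against 5.37% and 7.52% of all genes, and 3.54% and 7.07% with replicates 4 to 6, against 2.21% and 4.37%. Each set of replicates has 3 libraries a group. Within the sets, the members' median log2 fold change was 0.16 and 0.29 with OCA and 0.09 and 0.10 with vehicle.

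The members below 10 in at least 1 liver group were counted apart. Of these 21, 10 were called higher and 2 lower in embolized OCA lobes, and 6 higher and 0 lower in embolized vehicle lobes, by limma. Of the other 179, 45 (25.1%) were higher and 26 (14.5%) lower with OCA, and 33 (18.4%) were higher and 25 (14%) lower with vehicle.

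The lobe comparisons of OCA and vehicle rabbits share no library. All liver groups were fitted together, however, so both comparisons use the same estimate of a gene's spread. A gene with a small spread is favoured in both lists of calls, and the lists are therefore not independent. Called higher in both were 29 members (14.5%, against 7.96% of all genes tested), which is 52.7% of the OCA list and 74.4% of the vehicle list. Called lower in both were 18 members (9.0%, against 10.2% of all genes), which is 64.3% of the OCA list and 72.0% of the vehicle list. Only with OCA, 26 passed as higher and 10 as lower, and only with vehicle 10 passed as higher and 7 as lower. No member was called in opposite directions, and 100 were called in neither. Passing in 1 treatment and not in the other is not a difference between treatments, which is tested below. The fold changes of the members in both treatments had a Pearson r of 0.832, where all genes tested gave 0.838, and 149 members had the same sign.

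**Figure D3:**
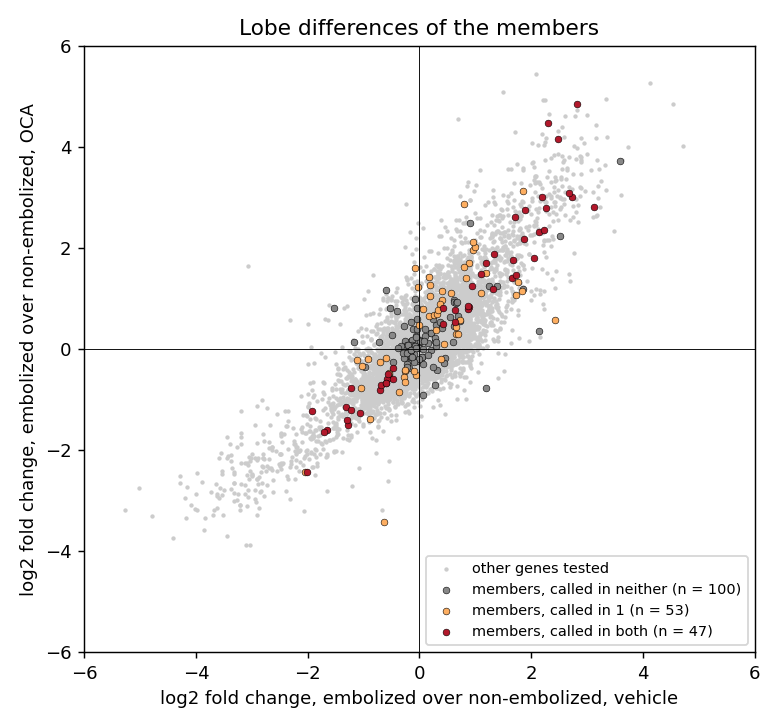
Each point is a gene tested in liver, with its log2 fold change of embolized over non-embolized lobes in vehicle rabbits on the horizontal axis and in OCA rabbits on the vertical axis. Members called in both treatments (red) lie in the upper right (29 genes) and lower left (18 genes), and no member was called in opposite directions.

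The members that were lower in both treatments were mostly high in liver, while those that were higher in both leaned only slightly to lower levels. The 29 had a median liver mean of 218 normalized counts, and 18 of them lay below the members' median of 260.0. The 18 had a median liver mean of 831, and 1 of them lay below that median. Log2 fold changes of the 29 ran from 0.50 to 4.85 with OCA (median 1.80) and from 0.43 to 3.12 with vehicle (median 1.71). Those of the 18 ran from -2.43 to -0.38 with OCA (median -0.97) and from -2.02 to -0.47 with vehicle (median -1.14). The 6 embolized and the 6 non-embolized libraries did not overlap for 17 of the 29 with OCA (58.6%) and 7 with vehicle (24.1%). Of the 689 genes of the whole table called higher in both treatments, 55.6% did not overlap with OCA and 34% with vehicle. Of the 18 lower ones, 12 (66.7%) and 8 (44.4%) did not overlap, against 58% and 50.7% of the 879 genes called lower in both. These shares are close to those of all such genes or below them, apart from the 18 with OCA, where the share was 66.7% against 58%.

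The same gradient appeared when the 200 members were ranked by liver mean and divided into 4 sets of 50. In the lowest set, at 10.6 to 88.6 normalized counts, 18 of 50 members were higher and 3 lower in embolized OCA lobes, which is 36% and 6.0%, against 19.9% and 8.84% of all genes in that range. In the second set, at 95.3 to 259 normalized counts, 20 were higher and 0 lower, which is 40.0% and 0.0%, against 15.7% and 15.6% of all genes in that range. In the third, at 260.0 to 538, 8 were higher and 8 lower, which is 16% each, against 14.2% and 18.7% of all genes in that range. In the highest, at 543 to 5260, 9 were higher and 17 lower, which is 18% and 34%, against 13.6% and 23.8% of all genes in that range. With OCA all genes showed the gradient in both directions, with a smaller slope in these shares. Vehicle rabbits gave 15, 10, 7 and 7 members higher from the lowest set to the highest, which is 30%, 20%, 14% and 14%, against 11.6%, 10.2%, 12.2% and 12.8% of all genes in those ranges. They gave 1, 4, 4 and 16 members lower, which is 2%, 8%, 8% and 32%, against 9.37%, 13.3%, 15.2% and 20.2% of all genes. With vehicle the share of all genes called higher therefore did not fall with level, while the share called lower grew. The lowest set holds the members closest to the liver minimum that chose them.

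Among called members averaging at least 20 normalized counts over the libraries compared, the largest rise in embolized OCA lobes was that of ENSOCUG00000002924. It had 959, 2008 and 2930 normalized counts at the lowest, median and highest in embolized OCA lobes, against 44.7, 61.0 and 78.2 in non-embolized OCA lobes. The groups were far apart, with a log2 fold change of 4.85 ± 0.65 (limma, adjusted p = 7.44e-06), and within replicates 1 to 3 and 4 to 6 it was 5.26 and 4.45. In vehicle rabbits the gene had 36.9, 229 and 3548 in embolized lobes, against 30.8, 36.6 and 42.8 in non-embolized lobes, so that 5 of 6 embolized libraries lay above all non-embolized ones and the lowest lay among them. There the log2 fold change was 2.82 ± 0.65 (limma, adjusted p = 0.00242). The highest value was in replicate 5, without which it was 2.07 (limma adjusted p = 0.00212). With only replicates 4 to 6 the vehicle call was lost (log2 fold change 3.24, limma adjusted p = 0.112).

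ENSOCUG00000010123 had its highest embolized values in the same libraries, OCA replicate 4 and vehicle replicate 5. It had 291, 499 and 1190 normalized counts at the lowest, median and highest in embolized OCA lobes, against 10.6, 24.5 and 44.6 in non-embolized OCA lobes. The groups did not overlap, and the log2 fold change was 4.48 ± 0.66 (limma, adjusted p = 2.26e-05). In vehicle rabbits it had 22.1, 60.2 and 1410.0 in embolized lobes, against 12.3, 15.1 and 39.5 in non-embolized lobes, with a log2 fold change of 2.30 ± 0.66 (limma, adjusted p = 0.0126) and overlapping ranges. The next embolized vehicle library below replicate 5 had 164, and without replicate 5 the log2 fold change was 1.51 ± 0.46 (limma, adjusted p = 0.018). Within replicates 1 to 3 and 4 to 6 the log2 fold change with OCA was 3.74 and 5.21.

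By the same measure ENSOCUG00000027219 rose most in vehicle rabbits. It had 231, 615 and 2688 normalized counts at the lowest, median and highest in embolized OCA lobes, against 59.0, 110.0 and 175 in non-embolized OCA lobes, without overlap and with a log2 fold change of 2.82 ± 0.56 (limma, adjusted p = 0.000482). In vehicle rabbits it had 226, 923 and 2571 in embolized lobes, against 30.5, 125 and 190.0 in non-embolized lobes. No embolized library fell among the non-embolized ones, and the log2 fold change with vehicle was 3.12 ± 0.56 (limma, adjusted p = 0.000223), with 3.16 and 3.09 within replicates 1 to 3 and 4 to 6. Its lowest embolized vehicle value was in replicate 5, the library that was highest for the previous members.

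The largest called fall above that mean, in either treatment, was that of ENSOCUG00000004124. It had 99.0, 168 and 227 normalized counts at the lowest, median and highest in embolized OCA lobes, against 684, 819 and 1104 in non-embolized OCA lobes. In vehicle rabbits it had 71.6, 97.2 and 153 in embolized lobes, against 180.0, 465 and 687 in non-embolized lobes. Neither pair overlapped, and the log2 fold change was -2.43 ± 0.26 with OCA and -2.02 ± 0.26 with vehicle (limma, adjusted p = 7.64e-07 and 4.93e-06). Within replicates 1 to 3 it was -2.28 and -1.75, and within replicates 4 to 6 it was -2.58 and -2.28.

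ENSOCUG00000006769 was lower in all embolized libraries as well. It had 12.1, 19.8 and 34.1 normalized counts at the lowest, median and highest in embolized OCA lobes, against 37.6, 44.4 and 63.5 in non-embolized OCA lobes, and in vehicle rabbits 3.58, 22.1 and 23 in embolized lobes, against 51.0, 64.4 and 81.4 in non-embolized lobes. Its log2 fold change was -1.24 ± 0.34 with OCA and -1.92 ± 0.34 with vehicle (limma, adjusted p = 0.00656 and 0.000176). Neither pair overlapped, and within replicates 1 to 3 and 4 to 6 the vehicle value was -1.69 and -2.14.

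ENSOCUG00000000119 passed the lobe test with OCA, but the call depended on single libraries. It had 0.00, 30.9 and 115 normalized counts at the lowest, median and highest in embolized OCA lobes, against 42.9, 127 and 149 in non-embolized OCA lobes, with overlap. Its log2 fold change was -2.42 ± 0.83 (limma, adjusted p = 0.027). The call was lost without embolized OCA replicate 1 (-1.58, limma adjusted p = 0.0847), without embolized OCA replicate 3 (-1.95, limma adjusted p = 0.0776) and without non-embolized OCA replicate 6 (-2.31, limma adjusted p = 0.0534). Within replicates 1 to 3 the log2 fold change was -4.40 and within replicates 4 to 6 it was -0.45. The OCA call was lost when only the groups compared were fitted (-2.42, limma adjusted p = 0.0734), and with edgeR and DESeq2 too, where the log2 fold change was -1.20 and -1.22. In vehicle rabbits the gene had 0.00, 4.00 and 7.34 in embolized lobes, against 7.42, 16.8 and 27.9 in non-embolized lobes, without overlap. There the log2 fold change of -2.05 ± 0.83 did not pass (limma, adjusted p = 0.0709). That SE is shared by the 4 liver groups fitted together, including the embolized OCA lobes at 0.00 to 115. It is not the spread of the vehicle lobes alone.

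**Figure D4:**
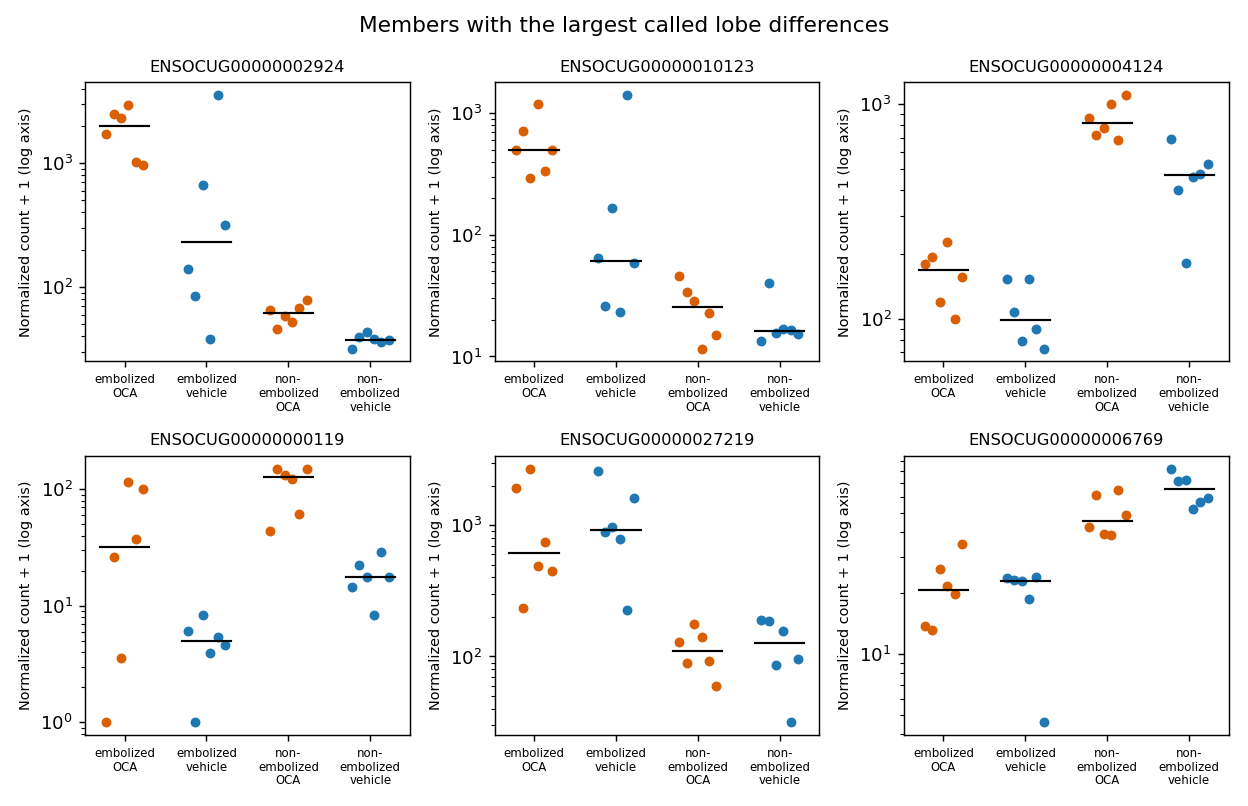
Each panel is a member with one of the largest called lobe differences, each point is a library, bars are group medians, and the vertical axis is the normalized count plus 1 on a log axis. ENSOCUG00000002924 and ENSOCUG00000010123 stand high in all 6 embolized OCA libraries and in embolized vehicle replicate 5, while ENSOCUG00000004124 is lower in every embolized library than in every non-embolized one of its treatment.

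Library by library, the embolized lobes of OCA rabbits behaved more evenly than those of vehicle rabbits. The members' median deviation from their own median over the liver libraries was above 0 in all 6 embolized OCA libraries, at 0.05 to 0.32 on the log2 scale. In embolized vehicle lobes it was -0.27 in replicate 4, -0.17 in replicate 2, -0.04 in replicate 6, 0.01 in replicate 1, 0.23 in replicate 3 and 0.28 in replicate 5. Non-embolized libraries lay at -0.12 to 0.01 with OCA and -0.11 to -0.02 with vehicle. The first principal component of the members held 45.38% of their variance in liver, where that of all genes tested held 36.49%. Its scores were 5.75 to 17.21 in embolized OCA lobes, -6.04 to 16.02 in embolized vehicle lobes, -10.92 to -2.07 in non-embolized OCA lobes and -12.33 to -0.71 in non-embolized vehicle lobes. Embolized vehicle replicate 4 scored lowest of the embolized libraries and lay within the range of the non-embolized ones.

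The median correlation of a pair of members over the liver libraries, after group means were taken out, was 0.072, against 0.0 for pairs of all genes tested, and 8.14% of pairs were above 0.5, where 7.81% of pairs of all genes tested were. Each value comes from the same 24 libraries.

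**Figure D5:**
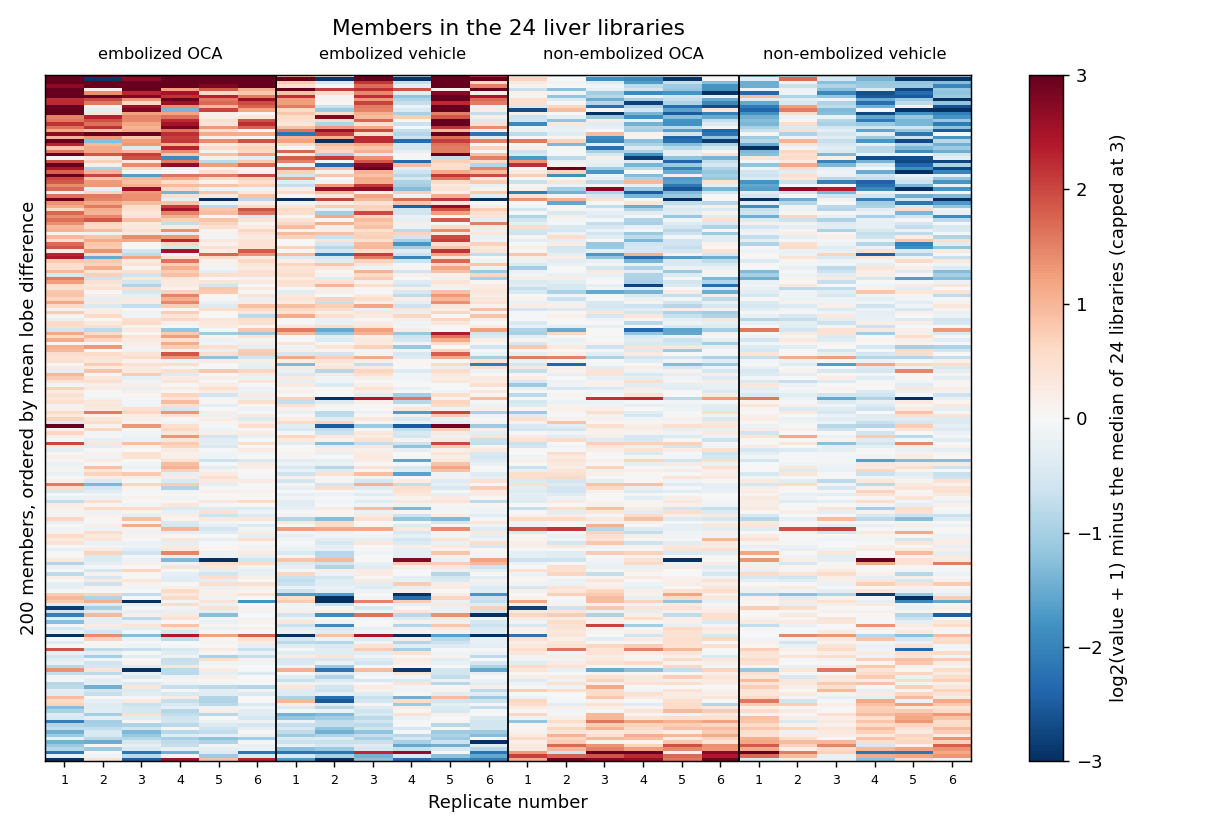
Each row is 1 of the 200 members, ordered by its mean lobe difference, and each column a liver library, with colour giving log2(normalized count + 1) minus the member's median over the 24 libraries, capped at 3. The upper rows are red in all 6 embolized OCA libraries and in embolized vehicle replicates 3 and 5, and pale or blue in embolized vehicle replicate 4, which scored -6.04 on the first component.

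OCA was compared with vehicle within each lobe and within ileum, by limma with adjusted p below 0.05. In embolized lobes no member was called, where 0.196% of all genes tested were, and the smallest adjusted p of a member was 0.0715. At an unadjusted p below 0.05 there were 34 members (17%), against 12.7% of all genes. The members' median log2 fold change was 0.17 and that of all genes 0.02, and 138 members (69.0%) had a positive one, against 53.0% of all genes. Scaling to equal totals moved the median of all genes to 0.15 and that of the members to 0.30, so the gap between them stayed near its size. On recovered reads edgeR called 0 members, where it called 0.196% of all genes, and DESeq2 called 1 (0.5% of members), where it called 1.06% of all genes.

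The count in embolized lobes moved most with a single library. Without embolized vehicle replicate 5, limma called 13 members (6.53%), all higher with OCA, among 294 genes called in all (3.42%). Without embolized vehicle replicate 3 it called 1 member higher (0.503%, against 0.441% of all genes called). Without embolized OCA replicate 3 it called 1 lower (0.503%, against 0.452%). With quality weights for libraries it called 3 higher and 1 lower (2% of members, against 1.21% of all genes). Without both embolized vehicle replicate 5 and embolized OCA replicate 4, which had the largest shares of member reads in their groups, it called 8 (4.02%). All 8 were higher with OCA, among 104 genes called in all (1.21%). With only replicates 1 to 3 it called 1 (0.5%, against 0.0803% of all genes), and with only replicates 4 to 6 it called 1 (0.505%, against 0.035%).

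ENSOCUG00000002924 had the lowest p of the members with a higher value. Its lowest, median and highest value was 959, 2008 and 2930 normalized counts in embolized OCA lobes, against 36.9, 229 and 3548 in embolized vehicle lobes, where 5 of 6 libraries lay below all OCA ones and replicate 5 above them. The log2 fold change was 2.72 ± 0.65 (limma, adjusted p = 0.0715), and without vehicle replicate 5 it was 3.47 (adjusted p = 0.000552). In non-embolized lobes the same gene had 44.7, 61.0 and 78.2 with OCA, against 30.8, 36.6 and 42.8 with vehicle, without overlap. The log2 fold change of 0.69 ± 0.65 did not pass (limma, adjusted p = 0.719). That SE comes from the spread in all 4 liver groups fitted together, including the embolized vehicle lobes at 36.9 to 3548. It is not the spread of the non-embolized lobes alone. Of the members with a lower value, ENSOCUG00000006793 had the lowest p, with 172, 224 and 312 in embolized OCA lobes, against 200.4, 370.0 and 447 in embolized vehicle lobes. Its log2 fold change was -0.59 ± 0.19 (limma, adjusted p = 0.179), and the ranges overlapped.

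In non-embolized lobes no member was called, where 0.624% of all genes tested were, and the smallest adjusted p of a member was 0.0571 by limma. At an unadjusted p below 0.05 there were 24 members (12%), against 14% of all genes, and the members' median log2 fold change was 0.02. On recovered reads edgeR called 0 members, where it called 0.485% of all genes, and DESeq2 called 7 higher and 2 lower (4.5% of members), where it called 3.06% of all genes. With quality weights for libraries limma called 7 higher and 3 lower (5% of members), where it called 4.6% of all genes.

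ENSOCUG00000007150 had 408, 486 and 584 normalized counts at the lowest, median and highest in non-embolized OCA lobes, against 297, 346 and 406 in non-embolized vehicle lobes. These ranges did not overlap, and the log2 fold change was 0.50 ± 0.13 (limma, adjusted p = 0.0571). ENSOCUG00000009732 had 62.6, 135 and 318 in non-embolized OCA lobes, against 216, 416 and 966 in non-embolized vehicle lobes, with overlap and a log2 fold change of -1.76 ± 0.47 (limma, adjusted p = 0.0785). Neither passed, and both adjusted p-values were near the threshold. Without non-embolized OCA replicate 2 the first passed (0.55, limma adjusted p = 0.0422), and without non-embolized OCA replicate 3 the second passed (-2.01, limma adjusted p = 0.043).

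Whether the lobe difference itself differed between OCA and vehicle rabbits was tested as an interaction. No member was called, where 0.0% of all genes tested were, and the smallest adjusted p of a member was 0.561 by limma. At an unadjusted p below 0.05 there were 12 members (6.0%), against 7.29% of all genes, and edgeR and DESeq2 called 0 members each. The members' median interaction was 0.14 on the log2 scale, against 0.01 over all genes, and scaling to equal totals gave 0.27 against 0.14. No member's lobe difference was therefore shown to depend on OCA.

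ENSOCUG00000025680 and ENSOCUG00000007150 had the lowest p of the interaction in each direction. ENSOCUG00000025680 had 90.8, 110.0 and 120.0 normalized counts at the lowest, median and highest in embolized OCA lobes, 70.7, 84.8 and 100.2 in embolized vehicle lobes, 85.9, 133 and 180.0 in non-embolized OCA lobes and 134, 156 and 218 in non-embolized vehicle lobes. Its embolized vehicle libraries lay below all non-embolized vehicle ones, while the OCA lobes overlapped, and the interaction was 0.72 ± 0.23 (limma, adjusted p = 0.561). ENSOCUG00000007150 had 346, 414 and 501 in embolized OCA lobes and 342, 465 and 517 in embolized vehicle lobes, beside the non-embolized values above, and its interaction was -0.58 ± 0.18 (limma, adjusted p = 0.561).

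In ileum, where these genes are most read, no member was called between OCA and vehicle, as was the case for 0.0% of the 9010 genes tested, and the smallest adjusted p of a member was 0.43 by limma. At an unadjusted p below 0.05 there were 4 members (2.0%), against 7.64% of all genes. The members' median log2 fold change was -0.01, and 99 of 200 were positive. On recovered reads edgeR called 0 members, where it called 0.0% of all genes, and DESeq2 called 1 (0.5% of members, against 0.888% of all genes). With quality weights limma called 5 (2.5% of members, against 3.87% of all genes). Without OCA 1 and vehicle 6, the libraries that stand apart, limma called 0 members again, where it called 0.0784% of all genes. The number of members at an unadjusted p below 0.05 was then 38 of 199 (19.1%), against 11.8% of all genes. The median log2 fold change was 0.19 without OCA 1 alone and -0.22 without vehicle 6 alone, so each of these libraries moved the members' balance.

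ENSOCUG00000004124, which had the largest called fall between lobes above a mean of 20 normalized counts, had the lowest p of the members with a higher value in ileum. It had 2150, 5465 and 6469 normalized counts at the lowest, median and highest in ileum of OCA rabbits, against 1126, 2868 and 3986 in ileum of vehicle rabbits. The ranges overlapped, the log2 fold change was 0.80 ± 0.34 (limma, adjusted p = 0.639), and the lowest values were again in OCA 1 and vehicle 6, without which it was 0.78 (limma, adjusted p = 0.195). In non-embolized lobes its values above gave a log2 fold change of 1.00 ± 0.26 for OCA over vehicle (limma, adjusted p = 0.0754), and in embolized lobes 0.59 ± 0.26 (limma, adjusted p = 0.345).

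ENSOCUG00000027246 had the lowest p of the members with a lower value in ileum. It had 196, 711 and 1902 normalized counts in ileum of OCA rabbits, against 382, 6099 and 17685 in ileum of vehicle rabbits. In 5 of 6 vehicle libraries it was above all OCA ones, and in vehicle 6 it lay among them. Its log2 fold change was -2.72 ± 0.80 (limma, adjusted p = 0.43), and without OCA 1 and vehicle 6 it was -3.46 (limma, adjusted p = 0.0717). In the liver it differed between lobes instead, with a log2 fold change of 2.36 ± 0.41 with OCA and 2.22 ± 0.41 with vehicle for embolized over non-embolized (limma, adjusted p = 0.000141 and 0.000343), without overlap in either.

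The steadiest members in liver were ENSOCUG00000029156 and ENSOCUG00000004001, with a coefficient of variation over the scaled liver libraries of 0.131 and 0.145. ENSOCUG00000029156 had a median of 1161 normalized counts in embolized OCA lobes, 1391 in embolized vehicle lobes, 1274 in non-embolized OCA lobes and 1277 in non-embolized vehicle lobes. ENSOCUG00000004001, which also sits at the T limit, had medians of 2054, 1738, 2011 and 2172 in the same groups. Neither passed the lobe test in either treatment, with log2 fold changes of -0.16 to 0.12 and adjusted p of 0.393 to 0.846 (limma). At the other end, after ENSOCUG00000011546, was ENSOCUG00000000968, with a coefficient of 2.53. Its highest values were 542 in embolized OCA replicate 1 and 382 in embolized vehicle replicate 5, against medians of 35.9 and 14.5 in those groups, and its medians in non-embolized lobes were 8.84 with OCA and 2.44 with vehicle.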

How the data were processed

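Strand-specific RNA libraries were sequenced as paired 150-base reads, per the labels. The submitters' processing notes name STAR, RSEM and DESeq2, with no version (genome build and annotation: not given in the sources used here). As deposited by the authors, 1 table covers ileum (12 libraries) and 1 covers liver (24 libraries), each holding a signal of normalized counts per gene, that is whole reads divided by a size factor per library. Dividing by the smallest step gave whole reads for all values within 0.01. Depth is given as the sum of these recovered reads, and p-values rest on replicate spread.

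From these values, means, shares of reads and limma tests were computed with R 4.3.3, limma 3.58.1 and Python 3.11.15. Liver libraries were fitted as 4 groups and ileum libraries as 2, on log2(normalized count + 1), after a filter of at least 10 in at least 6 libraries. All groups of a fit share the estimate of a gene's spread. P-values were adjusted by Benjamini-Hochberg over all genes tested, 8653 in liver and 9010 in ileum. On recovered reads, edgeR 4.0.16 and DESeq2 1.42.0 called 2808 and 3048 genes between lobes with OCA and 2287 and 2546 with vehicle, where limma called 2781 and 2210. The scripts were tested on simulated data. Other alternatives were another scaling, pseudocount, filter, sample weights, a term for replicates 1 to 3 against 4 to 6, a replicate block and leaving out each library.

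Same-numbered libraries of the lobes correlated in their deviations from group means at -0.107 to 0.489 with OCA, where 5 of 6 pairs were above 0.1, and at 0.140 to 0.525 with vehicle, where 6 of 6 were. The closest non-embolized library had the same number for 5 of 6 embolized libraries with OCA and 4 of 6 with vehicle. Same-numbered non-embolized libraries of OCA and vehicle rabbits, which differ in treatment, correlated at -0.317 to 0.539. Of these, 4 of 6 were above 0.1, and 2 of 6 were closest to their own number. No label states a pairing, and these correlations do not settle whether equal numbers are pairs.

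The members and the lists were chosen with earlier results of these data known. Named are the 3 members highest in ileum, the 3 highest in liver, the 2 steadiest and 2 most variable in liver, those at the limits of the choice, and for each comparison the 2 largest called rises and falls among members averaging at least 20, or where none was called the lowest p in each direction. Lists of cell type markers were set but not used, since none of the identifiers matched the RefSeq table (assembly mOryCun1.1, 38822 genes).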

Additional observations from a re-analysis of the deposited data

Results flagged for a closer look

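In 138 groups of 6 libraries (the named members in each group, and the members' share of reads), the lowest or highest library was compared with its nearest neighbour, and 24 values lay far from the rest of their group. Chance flags about 1 in 20 groups if values are normally distributed. The values here were not logged, and some members were named for being variable, so the 24 cannot be set against that rate. Their part in the results was not tested beyond the values given without these libraries.

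In ileum, OCA replicate 1 had 8.70% of its reads on the members, and the next OCA library had 18.1%. Vehicle replicate 6 had 120.0 normalized counts of ENSOCUG00000016264, where the next library had 174956, and 1567525 of ENSOCUG00000011546, where the next had 142. OCA replicate 1 had 314 of ENSOCUG00000011546, and the next OCA library 88.1. Vehicle replicate 5 was highest for ENSOCUG00000002924 with 73447 and for ENSOCUG00000027219 with 59851. OCA replicate 4 had 1902 of ENSOCUG00000027246, and vehicle replicate 3 had 6651 of ENSOCUG00000013016.

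In embolized vehicle lobes, replicate 5 was highest for ENSOCUG00000010443 with 7804, ENSOCUG00000002924 with 3548, ENSOCUG00000010123 with 1410.0 and ENSOCUG00000000968 with 382. Replicate 4 was highest for ENSOCUG00000001324 with 6550.0 and ENSOCUG00000001571 with 3911, replicate 3 for ENSOCUG00000011546 with 380.0, and replicate 6 was lowest for ENSOCUG00000006769 with 3.58. In embolized OCA lobes, replicate 1 was highest for ENSOCUG00000011546 with 35.5 and ENSOCUG00000000968 with 542, and replicate 2 was lowest for ENSOCUG00000025680 with 90.8 and ENSOCUG00000004001 with 1854.

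In non-embolized lobes, OCA replicate 2 had 64.5 of ENSOCUG00000011546, where the next had 5.90. Vehicle replicate 2 was highest for ENSOCUG00000010123 with 39.5 and ENSOCUG00000000968 with 32.5, and vehicle replicate 1 for ENSOCUG00000005435 with 40.7.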

How the results depend on the processing

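Members called between lobes numbered 83 with OCA and 64 with vehicle. Leaving out each library in turn gave 66 to 84 and 53 to 78. With a replicate block the counts were 98 and 78, of which 82 and 63 were shared with the counts reported. The shares of all genes with the block and without most single libraries are not given here, so these counts describe the members only. No other comparison gained a call from the block. For OCA over vehicle the block joins libraries of equal number that differ in treatment, so its lack of gain cannot be read. The counts moved by over 1.5 times when some replicates were tested alone, with fewer libraries. They fell to 34 with OCA in replicates 4 to 6. With vehicle they fell to 33 in replicates 1 to 3 and to 21 in replicates 4 to 6.

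For OCA over vehicle in non-embolized lobes the count was 0, against 1 with equal upper quartiles, 1 with only the groups compared, 10 with sample quality weights, 2 with a run term, 9 with DESeq2, and 0 to 2 without single libraries. In embolized lobes it was 0, against 4 with weights, 1 in each run, 1 with DESeq2, 0 to 13 without single libraries (13 without vehicle 5) and 8 without vehicle 5 and OCA 4. In ileum it was 0, against 5 with weights and 1 with DESeq2. The cause was not tested. The interaction gave 0 in each alternative run, and no named member reversed. With vehicle the members' balance turned, to 22 higher and 23 lower with equal totals and to 7 and 14 in replicates 4 to 6. All genes leaned lower there as well, at 7.12% higher and 15.1% lower with equal totals. In replicates 4 to 6 all genes were at 2.21% higher and 4.37% lower. With weights, 6 named members not called for OCA passed. The alternatives without embolized vehicle 5 and OCA 4, and with members chosen without ileum vehicle 6 and OCA 1, were chosen after seeing the data. Members chosen that way gave 52 higher and 33 lower with OCA, and 37 and 31 with vehicle.

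With 6 libraries a group, members at a few reads per library in liver are limited by counting.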
